A study of Mus musculus with 32 samples.

Results

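The cells described here are a rare set of mononuclear phagocytes from mouse epididymal fat in which RNA of both Cd7 and Cd209d was detected, and which were labelled transitional dendritic-like from an earlier clustering of the same data. Of 19564 cells kept from 4 libraries, 67 met the rule. A cell had at least 300 detected genes and at most 10% mitochondrial UMIs (unique molecular identifiers, each counting 1 captured RNA molecule), at least 1 UMI of Cd7 and 1 of Cd209d, no UMI of Cd3e, Cd3d, Cd3g or Ncr1, fewer than 5 UMIs of C1qa, C1qb and C1qc together, and fewer than 2 of the plasmacytoid genes Ccr9, Klk1 and Cox6a2 detected. These genes fixed the membership, and their values in the cells are given as a description only.

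The study fed CD169-DTR mice and C57BL/6 wild-type (WT) mice a high fat diet (HFD) or a normal diet (ND) for 16 weeks, with diphtheria toxin (DT) for 7 days in all of them. CD169-DTR mice carry a diphtheria toxin receptor under control of the CD169 (Siglec1) gene, through which the toxin is known to deplete CD169-expressing macrophages. The groups were HFD with CD169-DTR, HFD with WT, ND with CD169-DTR and ND with WT, each with 1 droplet library of 3′ RNA, so no difference between groups has a replicate check. CD45-positive and CD45-negative stromal vascular cells were sorted and mixed in equal parts after most F4/80-high macrophages and Ly6C-high monocytes had been gated out, and the labels do not say how many mice went into a library. Cells were placed in libraries by the number on their barcode, in the order of the deposited aggregation list. The libraries held 33390225 to 64766718 UMIs in 4014 to 6696 barcodes. Siglec1 itself gave 1 UMI over all 67 cells.

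Dendritic cells take up antigen and present it to T cells. Plasmacytoid dendritic cells are round, secretory cells that depend on the transcription factor TCF4, sense nucleic acids through TLR7 and TLR9 and release type I interferon, whereas type 2 conventional dendritic cells carry much MHC class II and lectins such as CD209a and prime CD4 T cells. Transitional dendritic cells were described in mouse and human as a small population that shares genes with both and can take on features of conventional type 2 cells. Of the 4 marker genes named with the label, Cd7 encodes a surface protein known from T and natural killer cells, Cd209d a lectin of the DC-SIGN family, Ly6c2 the Ly6C antigen of monocytes and plasmacytoid cells, and Irf7 a transcription factor that drives type I interferon genes.

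The start regions of 4 of the genes the results turn on are shown: Cd209d, which chose the cells, Cd209a, its family member and the gene of the type 2 comparison cells, and Siglech and Ly6c2, plasmacytoid genes whose level varied among the cells. Each window runs from 250 bases before to 50 bases after the annotated start, read 5′ to 3′ on the gene's strand, from RefSeq on GRCm38.p6. The positions are chr8:3878450-3878749 on the minus strand for Cd209d, chr8:3748935-3749234 on the minus strand for Cd209a, chr7:55767934-55768233 on the plus strand for Siglech, and chr15:75111922-75112221 on the minus strand for Ly6c2, for which the first of 2 entries was taken. Capitals mark CANNTG, the E-box core read by E proteins such as TCF4, which reads the same on both strands.
Cd209d: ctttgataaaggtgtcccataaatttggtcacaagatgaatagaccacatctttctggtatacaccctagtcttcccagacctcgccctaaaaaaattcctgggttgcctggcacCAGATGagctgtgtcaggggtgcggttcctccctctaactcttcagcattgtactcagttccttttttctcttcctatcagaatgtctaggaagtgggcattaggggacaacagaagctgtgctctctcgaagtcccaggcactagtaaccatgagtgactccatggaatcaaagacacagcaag
Cd209a: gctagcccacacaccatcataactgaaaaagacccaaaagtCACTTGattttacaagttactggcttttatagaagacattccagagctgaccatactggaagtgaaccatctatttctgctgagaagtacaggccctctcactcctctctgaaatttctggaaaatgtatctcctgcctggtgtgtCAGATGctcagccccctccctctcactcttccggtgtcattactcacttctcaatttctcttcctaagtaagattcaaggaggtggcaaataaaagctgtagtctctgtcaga
Siglech: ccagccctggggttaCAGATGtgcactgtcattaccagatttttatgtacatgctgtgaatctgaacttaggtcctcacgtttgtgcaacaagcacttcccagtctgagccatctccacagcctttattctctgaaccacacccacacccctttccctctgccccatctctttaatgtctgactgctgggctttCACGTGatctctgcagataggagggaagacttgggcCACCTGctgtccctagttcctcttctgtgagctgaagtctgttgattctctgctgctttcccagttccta
Ly6c2: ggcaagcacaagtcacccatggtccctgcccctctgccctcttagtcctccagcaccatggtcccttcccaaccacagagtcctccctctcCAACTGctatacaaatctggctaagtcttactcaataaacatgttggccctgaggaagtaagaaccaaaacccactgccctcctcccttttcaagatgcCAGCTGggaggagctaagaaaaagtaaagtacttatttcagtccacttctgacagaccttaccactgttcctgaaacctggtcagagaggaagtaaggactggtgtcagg
Cd209d had 1 match, Cd209a 2, Siglech 3 and Ly6c2 2. The same letters occurred in 72.3% of the 32851 windows of the table, with a median of 1 match, so the matches are a description of the windows only. By the GRCm38 annotation (GENCODE M21), the Cd7 gene (ENSMUSG00000025163) lies on chromosome 11 from 121036747 to 121039418 and the Irf7 gene (ENSMUSG00000025498) on chromosome 7 from 141262706 to 141266481, both on the minus strand. Droplet reads come from the 3′ end of an RNA. Of the 60-base windows in the last 500 bases of the longest coding transcript, 0% of those of Cd7, Cd209d, Cd209a and Irf7 occurred in another gene's transcripts, and 14.7% of those of Ly6c2 occurred in Ly6c1, so a part of the Ly6c2 reads cannot be placed with certainty. Ly6c1 had UMIs in 1 of the 67 cells.

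The 67 cells fitted the label in part. Cd7 had 1 to 23 UMIs per cell, with a median of 4, and Cd209d 1 to 40, with a median of 2, and 9 cells had only 1 UMI of each. Ly6c2 was detected in 43 of the 67 cells and Irf7 in 28 of 67. By library, Irf7 was detected in 7 of 17 cells of HFD CD169-DTR, 0 of 13 of HFD WT, 17 of 24 of ND CD169-DTR and 4 of 13 of ND WT, and 0 of 13 cells allows a share of cells with a UMI of up to 23.1%, taking 3 counts as the limit of a count of 0. Irf7 is not restricted to dendritic cells: 49.5% of fibroblast-gate cells also had a UMI, at a median depth of 6885 UMIs in the Cd7/Cd209d cells and 12066 in the fibroblast-gate cells. Siglech, the receptor that defines mouse plasmacytoid cells, was detected in 22 of 67 cells, against 2 of 676 B cells (0.296%) and 0 of 539 natural killer cells, whose median depths were 5786 and 3945 UMIs. Zbtb46, a gene of conventional dendritic cells, was detected in 10 of 67 cells, Flt3 in 24 of 67, and either of them in 30 of 67. Zbtb46 was detected in 28.8% of type 2 and 2.33% of plasmacytoid cells. Flt3 did not set the 2 apart, at 20.4% of type 2 and 23.3% of plasmacytoid cells. Cd209a together with Clec10a, genes of type 2 conventional cells, was detected in 41 of 67. Clec9a, known from type 1 conventional cells and their precursors, was detected in 13 of 67 cells. In the plasmacytoid gate, Cd209a was detected in 44.2% of cells, Clec10a in 69.8% and Clec9a in 37.2%. Because Siglech and Irf7 were each missing from most of the cells, they are called Cd7/Cd209d cells from here on.

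Few kept cells had both genes of the rule. A UMI of Cd209d was found in 542 kept cells, of which 143 also had Cd7. Leaving out cells with a CD3 UMI left 124, those with Ncr1 118, those with 5 or more C1q UMIs 116, and those with 2 or more of the 3 plasmacytoid genes 67. Of these exclusions the last removed the most, 49 cells. Taken singly, Cd209d was detected in 39.1% of type 2 conventional cells and 59.3% of plasmacytoid cells, against 2.66% of B cells and 0.742% of natural killer cells. Cd7 was detected in 13.8% of type 2 conventional cells, 89.5% of plasmacytoid cells and 52.9% of natural killer cells, against 1.04% of B cells and 0.201% of fibroblasts. Thinned to 2000 UMIs per cell, 70.3% of the Cd7/Cd209d cells kept a Cd7 UMI and 59.4% a Cd209d UMI, so membership itself depends on depth.

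Levels on both sides of the last threshold followed different courses. The 41 members with none of Ccr9, Klk1 and Cox6a2 had 11.8 CPM (UMIs per 1000000 UMIs of the cells summed) of Siglech, the 26 members with 1 of the 3 had 426, and the 49 cells just outside had 1673. For Irf8, a transcription factor of plasmacytoid and type 1 conventional cells, the levels were 62.2, 718 and 3090 CPM in the same order. For Tcf4 they were 198, 1371 and 1346 CPM, and for Ly6c2 234, 2019 and 1612 CPM, so that for these the step lay between the members with none and those with 1. For H2-Ab1, an MHC class II chain, they were 9964, 2404 and 2571 CPM.

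Cd7/Cd209d cells made up under 1% of every library. They were 17 of 5705 kept cells in HFD CD169-DTR (0.298%, 95% exact Clopper-Pearson interval 0.174 to 0.477%), 13 of 5187 in HFD WT (0.251%, 0.134 to 0.428%), 24 of 3624 in ND CD169-DTR (0.662%, 0.425 to 0.984%) and 13 of 5048 in ND WT (0.258%, 0.137 to 0.440%). Of cells with a Ptprc UMI, the gene of CD45, they were 0.715%, 0.500%, 1.25% and 0.527% in the same order, for which the sorting ratio matters less. ND CD169-DTR had the highest share by both denominators, and its interval over all kept cells overlapped those of the other 3 libraries. The intervals cover counting error only. Median depth per Cd7/Cd209d cell was 4929, 7258, 7174.5 and 7633 UMIs in the same order of libraries. Scrublet called 1 of the 67 cells a doublet, but it called 0.69 to 1.37% of the cells of a library where the labels give an expected multiplet rate of 5.4%, and no member had a barcode that was also kept in another library.

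**Figure D1:**
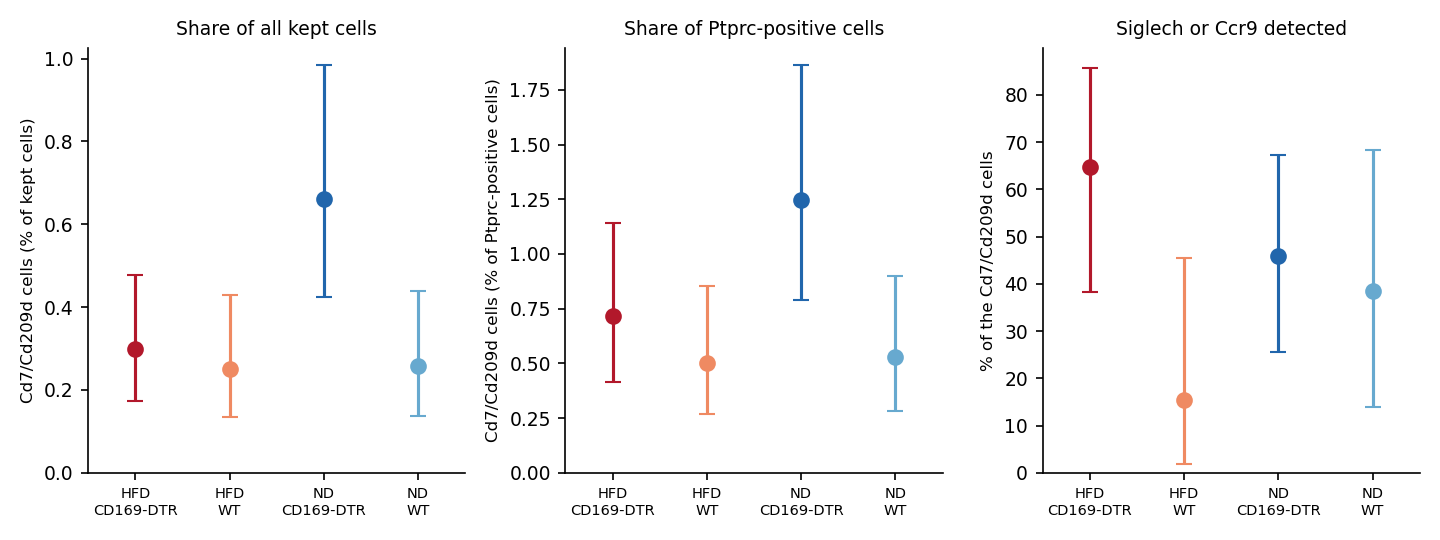
Share of Cd7/Cd209d cells among kept cells (left) and among Ptprc-positive cells (middle), and share of them with a Siglech or Ccr9 UMI (right), for each of the 4 libraries, with exact 95% intervals as bars. ND CD169-DTR has the highest share of cells at 0.662% of kept cells, and HFD WT the lowest share with Siglech or Ccr9 at 15.4%.

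Within the set, cells with plasmacytoid RNA and cells with conventional or monocyte RNA stood side by side. Siglech or Ccr9, the chemokine receptor of plasmacytoid cells, was detected in 29 of the 67 cells, a division made after the values were seen and therefore given without a test. Those 29 cells had 1269 CPM of Tcf4 (95% Poisson interval 1114 to 1440), against 191 (146 to 246) in the other 38. They had 1922 CPM of Ly6c2 (1730 to 2130) against 188 (143 to 242), and 521 CPM of Bcl11a, a factor that sustains plasmacytoid cells, against 65.8. Runx2, a transcription factor of plasmacytoid cells, had 290 CPM against 12.5, and Cd8a 174 CPM against 6.27. The plasmacytoid gate had 1308 CPM of Tcf4.

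The other 38 cells carried the genes of antigen presentation and myeloid cells. H2-Ab1 had 2222 CPM in the 29 cells (2015 to 2445), against 10512 in the 38 (10159 to 10874). Lyz2, the lysozyme of myeloid cells, had 52.7 CPM in the 29 cells and 2049 in the 38. Of the 654 Lyz2 UMIs in the 38 cells, 507 came from 7 cells, and the median cell had 5.5. Fcgr1, an Fc receptor gene used below to gate monocytes, was detected in 11 of all 67 cells, with 2 or more UMIs in 7. In the plasmacytoid gate it was detected in 0 of 86 cells. Il1b, the inflammasome-processed cytokine, had 506 CPM in the 29 cells, where 1 cell held 63 of 96 UMIs, and 3556 in the 38, where the median cell had 22.5 UMIs. Tnip3, an inhibitor of NF-kB signalling, had 184 CPM in the 29 cells and 974 in the 38. Cd209a was shared more evenly, at 327 CPM in the 29 cells and 671 in the 38, and 20 of the 29 cells with Siglech or Ccr9 also had a Cd209a UMI. Klrd1, which encodes the lectin-like receptor CD94, was found in 28 of the 29 cells and 29 of the 38. Bst2 was detected in 29 of the 29 and 32 of the 38, and Tcf4 in 29 and 25, so both genes were found on both sides at different levels.

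**Figure D2:**
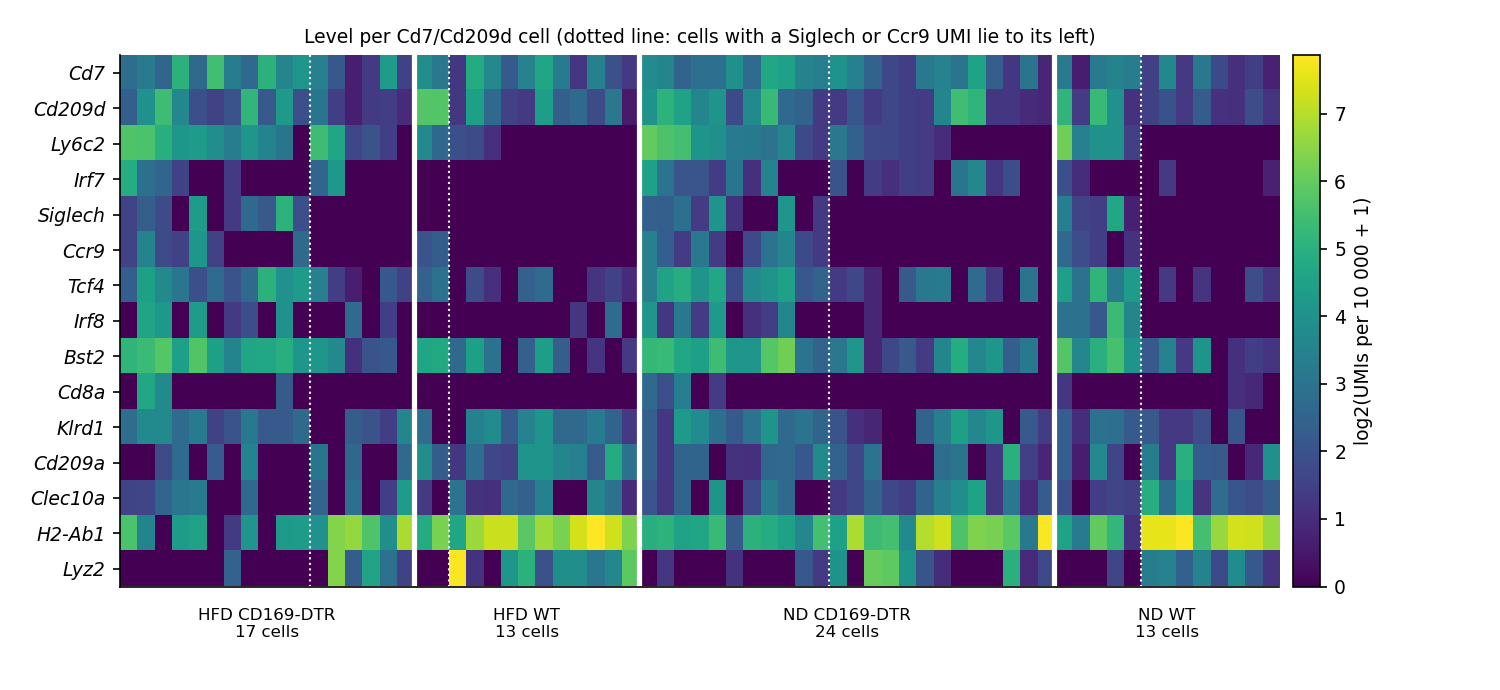
Level of 15 genes in each of the 67 Cd7/Cd209d cells, as log2(UMIs per 10 000 + 1), grouped by library, with cells that have a Siglech or Ccr9 UMI left of the dotted line. Tcf4, Bst2 and Ly6c2 fill the left side of each library, where 28 of 29 cells have Ly6c2, and H2-Ab1 and Lyz2 the right side, where 32 of 38 cells have Lyz2.

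The share of cells with Siglech or Ccr9 is set in part by the rule, which left out 11, 3, 16 and 19 cells of HFD CD169-DTR, HFD WT, ND CD169-DTR and ND WT through 2 or more plasmacytoid genes. Siglech or Ccr9 was detected in 11 of 17 cells of HFD CD169-DTR (64.7%, 38.3 to 85.8%), 2 of 13 of HFD WT (15.4%, 1.92 to 45.4%), 11 of 24 of ND CD169-DTR (45.8%, 25.6 to 67.2%) and 5 of 13 of ND WT (38.5%, 13.9 to 68.4%). Thinned to 2000 UMIs per cell, the shares were 47.1%, 7.69%, 42.9% and 38.5% in the same order. The intervals of all 4 libraries overlapped, but they cover counting error only and their overlap is not a test. No group had a replicate library, so a difference between groups was not tested. The plasmacytoid gate held 36 cells in HFD CD169-DTR, 5 in HFD WT, 23 in ND CD169-DTR and 22 in ND WT, so HFD WT was lowest in this gate too.

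The comparison sets were gated from the same libraries with other genes. Type 2 conventional cells had at least 2 UMIs of Cd209a and 1 of Clec10a, plasmacytoid cells had Siglech and at least 2 of Ccr9, Klk1 and Cox6a2, and C1q-low monocytes had Ccr2, Fcgr1 and at least 5 UMIs of Lyz2, each with further exclusions. UMIs were summed per library and gate and tested with the edgeR quasi-likelihood test with library as a block, over libraries with at least 10 cells of both kinds. Genes used by either gate were left out of the tests. Each Cd7/Cd209d sum pooled cells with and without Siglech or Ccr9, whose levels differed as given above. Since the rule came from a clustering of these cells, the folds below describe how the gated cells differ and are not independent of how the rule was found. Ly6c2 and Irf7 came with the label, so their own values are given without a test. Where fitted, both stay in the counts of genes tested, called and named unless set aside.

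Against type 2 conventional dendritic cells, the Cd7/Cd209d cells were higher in plasmacytoid transcription factors and surface genes and lower in MHC class II, costimulation and immediate early genes. Most of the lower calls in these lists were lost when ND CD169-DTR was left out. Over the 4 libraries, 100 of 2550 genes were called higher (3.92%) and 175 lower (6.86%) at an adjusted p below 0.05. Tcf4, the master factor of plasmacytoid cells, had 603, 207, 740 and 723 CPM in Cd7/Cd209d cells of HFD CD169-DTR, HFD WT, ND CD169-DTR and ND WT, against 91.4, 91.0, 117 and 97.4 CPM in type 2 cells. Every Cd7/Cd209d value lay above every type 2 value, and the log2 fold change was 2.33 ± 0.27 (SE, edgeR adjusted p = 0.000587). Bst2, the antiviral tetherin that marks mouse plasmacytoid cells, had 1595, 782, 1509 and 1237 CPM, against 251, 134, 433 and 135 CPM, a log2 fold change of 2.47 ± 0.22 (edgeR adjusted p = 0.000124). Its groups did not overlap either. Bcl11a averaged 236 ± 50.1 CPM in Cd7/Cd209d cells and 21.5 ± 12.3 CPM in type 2 cells (SD, n = 4 libraries each), with a log2 fold change of 3.22 ± 0.29 (edgeR adjusted p = 0.000124).

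Of 22 plasmacytoid markers, 8 were tested against type 2 cells, and 6 rose (Bst2, Bcl11a, Tcf4, Runx2, Blnk and Irf8), with a median log2 fold change of 2.17 against 0.02 over all genes tested. The rise of Irf8, by 2.02 ± 0.56, lost its call whichever library was left out. Plac8, a gene of plasmacytoid cells and Ly6C-high monocytes, rose by 2.24 ± 0.21 on the log2 scale and kept its call whichever library was left out. Jaml, an adhesion molecule of leukocytes, averaged 212 ± 51.8 CPM in Cd7/Cd209d cells and 38.8 ± 6.86 CPM in type 2 cells (SD, n = 4 libraries each), a log2 rise of 2.46 ± 0.26. Lag3, an inhibitory receptor that binds MHC class II, rose by 3.68 ± 0.38, with 50 UMIs in the Cd7/Cd209d cells against 28 in the far more numerous type 2 cells. Ly6c2 was 827 ± 532 CPM in Cd7/Cd209d cells and 28.2 ± 39.1 CPM in type 2 cells (SD, n = 4 libraries each), given without a test.

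All 11 MHC class II genes were tested, and 5 fell, with a median log2 fold change of -0.73. H2-Ab1 had 4692, 10703, 6038 and 8579 CPM in Cd7/Cd209d cells of HFD CD169-DTR, HFD WT, ND CD169-DTR and ND WT, against 11997, 14397, 12778 and 13329 CPM in type 2 cells, and the log2 fold change was -0.95 ± 0.16 (edgeR adjusted p = 0.00397). H2-Aa, H2-Eb1, H2-DMb2 and the invariant chain Cd74 fell too, each losing its call in at least 1 fit that left out a library, ND CD169-DTR being among these libraries for all of them and for H2-Ab1. H2-Ab1 was still detected in 95.5% of the Cd7/Cd209d cells. Of 8 costimulation and maturation genes tested, 5 fell (Cd80, Cd83, Tnfsf9, Cd86 and Cd40), with log2 fold changes of -0.78 to -1.26. All of them lost their call without ND CD169-DTR and in at least 1 other such fit, Cd86 whichever library was left out. Of 8 C-type lectins tested, 5 fell, among them Mgl2, the galactose lectin of type 2 cells, by 2.46 ± 0.27, and Clec4b1, which fell by 2.29 ± 0.31. Of 24 dendritic transcription factors, 16 were tested. Irf4, which type 2 cells require, and Rbpj, the Notch effector, fell. Both calls were lost without ND CD169-DTR, and that of Rbpj also without HFD WT and without ND WT. Spi1, the myeloid factor PU.1, had a log2 fold change of -0.05.

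Inflammatory genes were also lower than in type 2 cells. Of 14 chemokine and cytokine genes tested, 6 fell (Ccl17, Il1b, Ccl9, Cxcl16, Ccl2 and Ccl6), with a median of -1.39. Ccl17, a chemokine that attracts CCR4-positive T cells, had 4 UMIs in all Cd7/Cd209d cells against 975 in type 2 cells, with a log2 fold change of -5.94 ± 0.83. Of the 975, 539 came from ND CD169-DTR, and the call was lost without that library. The calls of Il1b, Ccl2 and Ccl6 were lost without it too, and those of Ccl2 and Ccl6 also without other libraries. Ccl9 and Cxcl16 kept theirs whichever library was left out. Of 14 immediate early genes tested, 8 fell, with a median log2 fold change of -0.92. Klf6, Atf3 and Egr1 kept their calls whichever library was left out. Fosb, Junb, Dusp1, Zfp36 and Klf2 lost theirs without ND CD169-DTR, and Dusp1, Zfp36 and Klf2 also without other libraries. Immediate early genes respond to handling of tissue as well as to stimulation, and that part was not tested. Of the interferon response genes tested, Irf7 aside, Bst2, Ly6e, Trim30a and Ifi35 rose. Of these, Bst2 kept its call whichever library was left out, Ly6e lost it without ND CD169-DTR, and Trim30a and Ifi35 each lost it in 3 of 4 such fits. The median log2 fold change was 0.09 over 13 MHC class I genes and -0.01 over 12 lysosomal and lipid handling genes tested.

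Matrix genes of fibroblasts stood among the largest falls, Col1a1 with a log2 fold change of -5.19, and the level of fibroblast RNA differed between the gates. The 7 fibroblast markers summed to 675, 423, 285 and 370 CPM in Cd7/Cd209d cells of HFD CD169-DTR, HFD WT, ND CD169-DTR and ND WT, against 9982, 1680, 2018 and 1045 CPM in type 2 cells, with Pdgfra at 0 UMIs in the Cd7/Cd209d cells. What part fibroblast RNA has in the differences was not tested. Leaving out ND CD169-DTR, the library with the most Cd7/Cd209d cells, left 14 genes higher and 37 lower, so the counts depend on that library. Of 77 genes named for this comparison, 24 were called in every fit that left out 1 library, among them Tcf4, Bst2, Bcl11a, Runx2, Plac8, Jaml, Mgl2 and Clec4b1.

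**Figure D3:**
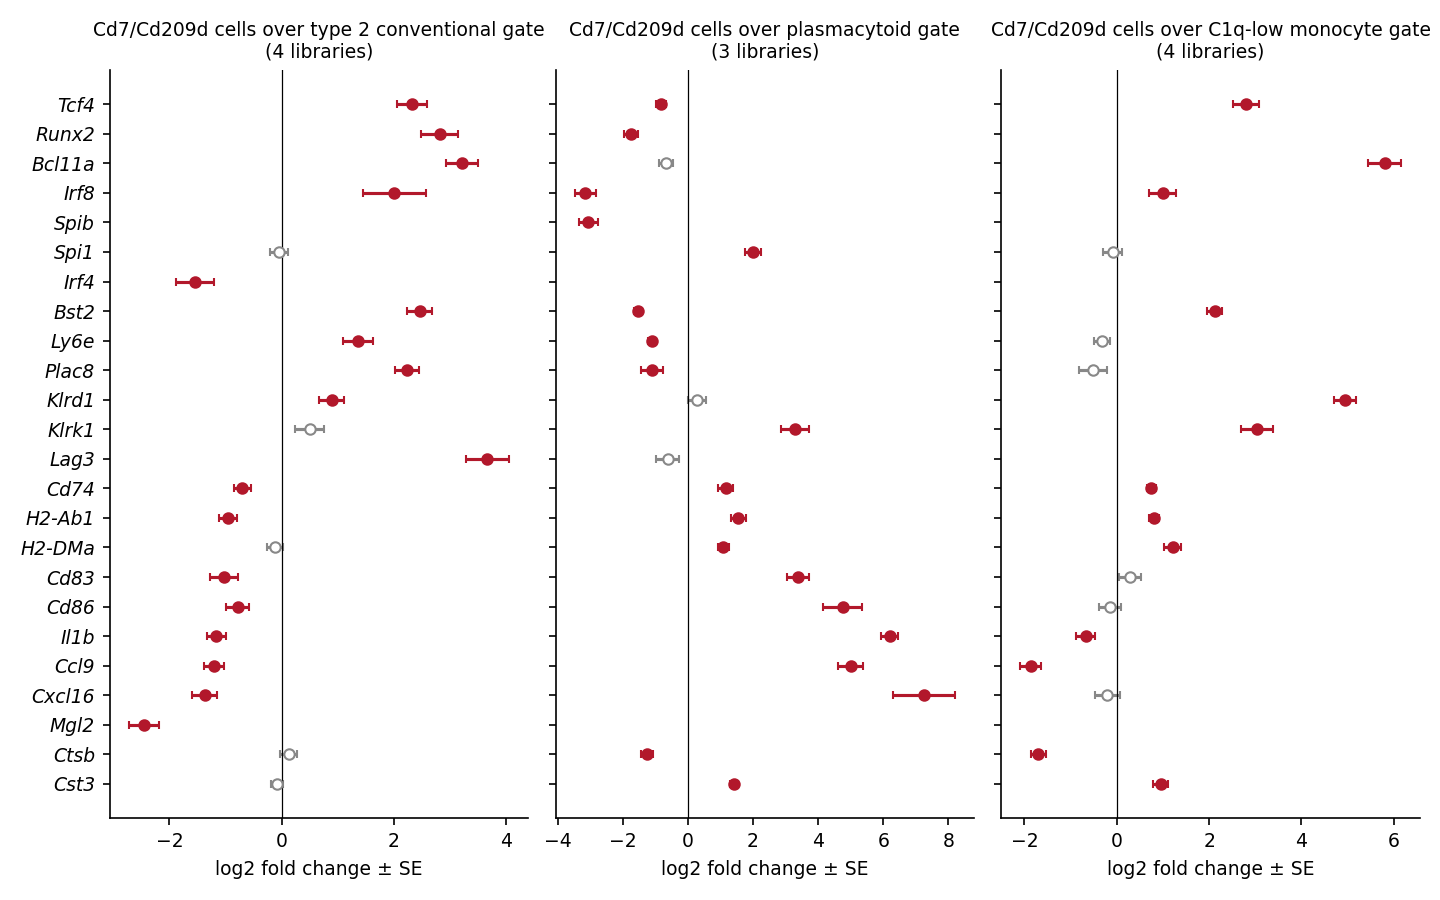
Log2 fold change ± SE of 24 genes in Cd7/Cd209d cells over type 2 conventional (left), plasmacytoid (middle) and C1q-low monocyte cells (right) by edgeR, with filled points at an adjusted p below 0.05 and genes not tested left blank. Tcf4 lies at 2.33, -0.83 and 2.80, and H2-Ab1 at -0.95, 1.54 and 0.80, each between the type 2 and the plasmacytoid cells. These folds are of all Cd7/Cd209d cells summed, which pools unlike cells. The folds over plasmacytoid cells are set in part by the gating. The median cell had 5 UMIs of Tcf4 with Siglech or Ccr9 and 1 without, and 14 and 80.5 UMIs of H2-Ab1.

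Against plasmacytoid cells the order turned round: plasmacytoid genes were lower and MHC class II and costimulation genes higher. HFD WT had only 5 plasmacytoid cells and was not fitted, so the comparison rests on 3 libraries. In it, 201 of 2006 genes were called higher (10%) and 224 lower (11.2%). Of 16 plasmacytoid markers tested, 14 fell, with a median log2 fold change of -1.92. The rule allowed fewer than 2 of Ccr9, Klk1 and Cox6a2, and the plasmacytoid gate required at least 2 of them and Siglech. Falls of genes expressed alongside these are therefore set in part by the gating, which the p-values do not take into account. Irf8 averaged 368 ± 132 CPM in Cd7/Cd209d cells and 3366 ± 970 CPM in plasmacytoid cells (SD, n = 3 libraries each), a log2 fold change of -3.15 ± 0.33 (edgeR adjusted p = 0.000407). Spib, an Ets factor of plasmacytoid cells, fell by 3.06 ± 0.29, and Ly6d, a marker of lymphoid progenitors, fell by 4.57 ± 0.38 on the log2 scale. Tcf4 fell far less, by 0.83 ± 0.15, to 603, 740 and 723 CPM in HFD CD169-DTR, ND CD169-DTR and ND WT, against 1080, 1440 and 1327 CPM in plasmacytoid cells. Bcl11a had a log2 fold change of -0.66 ± 0.21 and did not pass the test, and Runx2 fell by 1.75 ± 0.23. Ly6c2 had 1411, 1031 and 715 CPM in the Cd7/Cd209d cells of these libraries, against 1760, 2145 and 1341 CPM in plasmacytoid cells, given without a test.

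Of 9 MHC class II genes tested, 7 rose, with a median log2 fold change of 1.16. H2-Ab1 averaged 6437 ± 1974 CPM in Cd7/Cd209d cells and 2238 ± 198 CPM in plasmacytoid cells (SD, n = 3 libraries each), a log2 rise of 1.54 ± 0.23 (edgeR adjusted p = 0.00189). H2-DMb1, which loads peptide onto class II, rose by 1.85 ± 0.16, and H2-Eb1 by 1.90 ± 0.23. Of 4 costimulation and maturation genes tested, 3 rose (Cd83, Cd86 and Tnfsf9), and Cd86, the ligand of CD28, had 61 UMIs in Cd7/Cd209d cells against 2 in plasmacytoid cells, a ratio of pooled levels of 31.4 (8.32 to 265). Of 6 chemokine and cytokine genes tested, 3 rose (Il1b, Ccl9 and Cxcl16) and 1, the chemokine Ccl4, fell by 2.07 ± 0.48, a call lost without ND WT. Il1b had 1349, 2199 and 2241 CPM in HFD CD169-DTR, ND CD169-DTR and ND WT, against 29.6, 15.7 and 34.2 CPM in plasmacytoid cells, a log2 rise of 6.20 ± 0.27 (edgeR adjusted p = 7.08e-06). The lowest Cd7/Cd209d value was thus far above the highest plasmacytoid value. S100a4, a calcium-binding protein of myeloid and memory T cells, had 1799, 1965 and 1687 CPM, against 29.6, 15.7 and 88.9 CPM, a log2 rise of 5.39 ± 0.34. Cxcl16 had 50 UMIs in Cd7/Cd209d cells and 0 in plasmacytoid cells, at least 17.1-fold higher with 3 UMIs over the group as the limit of a count of 0. Spi1 rose by 1.99 ± 0.25 and Ccr2, the receptor that brings monocytes into tissue, by 1.86 ± 0.32.

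Genes of nucleic acid sensing were partly lower. Of 8 nucleic acid sensing genes tested, Irf7 included, 4 fell (Pld4, Ctsb, Unc93b1 and Ifnar2). Unc93b1, the chaperone of the endosomal Toll-like receptors, fell by 0.97 ± 0.18. Tlr7 had 6 UMIs over all 67 cells and Tlr9, Ifna2, Ifna4, Ifna5, Ifna13 and Ifnb1 had 0. Ifna2, Ifna4, Ifna5, Ifna13 and Ifnb1 also had 0 UMIs in the plasmacytoid gate, so they do not set the cells apart. The call of Ifnar2 was lost without ND CD169-DTR. Of 10 interferon response genes tested, Irf7 included, 3 fell (Bst2, Ly6e and Ifi27l2a). Ifi27l2a lost its call without ND CD169-DTR and also without ND WT. Of 9 secretory and unfolded protein genes tested, 2 fell (Herpud1 and Xbp1), 1 rose (Calr) and 6 did not pass the test, and Xbp1, the factor of the secretory programme, fell by 1.81 ± 0.38. The call of Calr was lost whichever library was left out. Of 11 lysosomal and lipid handling genes tested, 5 rose (Cst3, Fabp5, Lgmn, Plin2 and Ctss) and 3 fell (Ctsl, Ctsb and Psap). Fabp5, Lgmn, Plin2 and Ctss each lost their call in at least 1 fit that left out a library. The protease Ctsl fell by 2.74 ± 0.16, and the cystatin Cst3 rose by 1.42 ± 0.13. Fibroblast markers summed to 675, 285 and 370 CPM in Cd7/Cd209d cells of HFD CD169-DTR, ND CD169-DTR and ND WT, against 11262, 360 and 376 CPM in plasmacytoid cells, so 1 plasmacytoid sum carried much fibroblast RNA. Of 90 genes named for this comparison, 66 were called in every fit that left out a library, Tcf4, Irf8, Spib, H2-Ab1 and Il1b among them. Leaving out ND CD169-DTR left 136 genes higher and 128 lower.

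Against C1q-low monocytes, the Cd7/Cd209d cells were higher in plasmacytoid and MHC class II genes and lower in macrophage, Fc receptor and lysosomal genes. Of 2107 genes tested over the 4 libraries, 279 were called higher (13.2%) and 286 lower (13.6%). Of 7 plasmacytoid markers tested, 6 rose, with Bcl11a higher by 5.80 ± 0.35 and Upb1, a pyrimidine catabolic enzyme found in plasmacytoid cells, by 5.12 ± 0.42. Kmo, an enzyme of the kynurenine pathway found in conventional dendritic cells, had 51 UMIs in Cd7/Cd209d cells against 12 in the more numerous monocytes, a log2 rise of 4.73 ± 0.48 (edgeR adjusted p = 2.25e-05). Of 7 MHC class II genes tested, 6 rose, H2-Ab1 by 0.80 ± 0.11 and Cd74 by 0.75 ± 0.10. Other dendritic lists were divided. Of 5 type 2 conventional markers tested, Clec10a rose and 3 fell (Klf4, Sirpa and Itgam), and of 13 dendritic transcription factors tested, 4 rose (Bcl11a, Tcf4, Irf8 and Ikzf1) and 3 fell (Cebpb, Klf4 and Zeb2). Clec10a, Klf4, Bcl11a, Tcf4 and Cebpb kept their calls whichever library was left out. Sirpa, Itgam, Irf8, Ikzf1 and Zeb2 each lost theirs in at least 1 such fit. Thbs1, a matrix protein released by monocytes, had 2 UMIs in Cd7/Cd209d cells against 3533 in monocytes, a pooled level 256 times lower (70.9 to 2118), and Chil3, the chitinase-like Ym1 of Ly6C-high monocytes, 4 against 1811.

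Of 7 Fc and complement receptors tested, 5 fell (Fcgr4, Fcgr3, Fcer1g, Fcgr2b and Itgam) and 2 rose (Fcgrt and Itgax). Fcgr4, Fcgr3 and Fcgrt kept their calls whichever library was left out. Fcer1g, Fcgr2b, Itgam and Itgax each lost theirs in at least 1 such fit. Fcgrt, the neonatal Fc receptor that recycles antibody, rose by 3.13 ± 0.27. Of 13 lysosomal and lipid handling genes tested, 10 fell and 1, the cystatin Cst3, rose. Plin2, the coat protein of lipid droplets, fell by 2.71 ± 0.15, and Apoe averaged 113 ± 72.0 CPM in Cd7/Cd209d cells and 2356 ± 668 CPM in monocytes (SD, n = 4 libraries each). Of 8 C-type lectins tested, 6 fell and Clec10a rose. All 4 macrophage markers tested fell (Apoe, Csf1r, Cd68 and Adgre1). Of 103 genes named for this comparison, 78 were called in every fit that left out a library, and leaving out ND CD169-DTR left 135 genes higher and 166 lower. Leaving out ND WT, which had 10 monocytes, gave 372 and 345.

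Genes shared with natural killer cells were partly present. Klrd1 had 532, 603, 541 and 217 CPM in Cd7/Cd209d cells of HFD CD169-DTR, HFD WT, ND CD169-DTR and ND WT, against 15.8, 13.1, 20.5 and 11.9 CPM in monocytes, a log2 rise of 4.95 ± 0.24 (edgeR adjusted p = 3.26e-08). The groups did not overlap. Klrd1 was detected in 85.1% of the cells, 72.1% of plasmacytoid cells, 52.3% of type 2 cells, 80.7% of natural killer cells and 4.88% of B cells. Against plasmacytoid cells its log2 fold change was 0.27 ± 0.28 and did not pass the test. Klrk1, the activating receptor NKG2D, had 174, 180, 177 and 153 CPM in Cd7/Cd209d cells in the same order of libraries, and it rose by 3.03 ± 0.35 over monocytes and by 3.29 ± 0.42 over plasmacytoid cells. Against type 2 cells, Klrk1 did not pass the test (edgeR adjusted p = 0.279), and the rise of Klrd1 by 0.90 ± 0.23 lost its call whichever library was left out. Natural killer effector genes were near 0. Nkg7 had 0, 2, 3 and 1 UMIs, Gzmb had 0 throughout, and Gzma had 15 UMIs in HFD WT and 0 in the other 3 libraries. Trac, like the CD3 genes of the rule, had 0 UMIs.

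Across the 4 libraries, the summed levels of whole gene lists followed different orders in the Cd7/Cd209d cells. With 1 library in each group, these are levels with counting intervals and no test, and no pair of libraries had 20 or more of these cells in both, so no ratios were formed. The 35 interferon response genes measured summed to 6563 CPM in HFD CD169-DTR (6065 to 7091), 1763 in HFD WT (1525 to 2028), 5297 in ND CD169-DTR (4962 to 5649) and 2900 in ND WT (2609 to 3215). Both CD169-DTR libraries were above both WT libraries. The same list had 3620, 1255, 2518 and 1366 CPM in type 2 cells and 5646, 3467, 7475 and 3906 CPM in monocytes. In both, the CD169-DTR libraries were also higher. Plasmacytoid cells had 8918, 9106, 11428 and 8026 CPM, with ND CD169-DTR above both WT libraries. There, HFD CD169-DTR was not above HFD WT, but HFD WT had only 5 plasmacytoid cells and the intervals overlapped (8422 to 9436 and 8122 to 10177). In the single gene Irf7, the Cd7/Cd209d cells had 33, 0, 56 and 6 UMIs in the same order of libraries.

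MHC class II ran the other way. Its 11 genes summed to 30833 CPM in HFD CD169-DTR (29742 to 31954), 72086 in HFD WT (70517 to 73682), 41683 in ND CD169-DTR (40733 to 42649) and 51380 in ND WT (50129 to 52655). The same sums were 69665, 83987, 73774 and 78558 CPM in type 2 cells and 16295, 47158, 23805 and 38919 CPM in monocytes, the order of libraries being the same in all 3 sets, whereas in plasmacytoid cells they were 18804, 25592, 17565 and 15764 CPM. Ly6c2 had 1411 CPM in HFD CD169-DTR, 153 in HFD WT, 1031 in ND CD169-DTR and 715 in ND WT, and in ND WT 57.3% of its UMIs came from 1 cell. The share of cells with Siglech or Ccr9, given above, was also lowest in HFD WT and highest in HFD CD169-DTR, and its part in these sums was not tested.

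**Figure D4:**
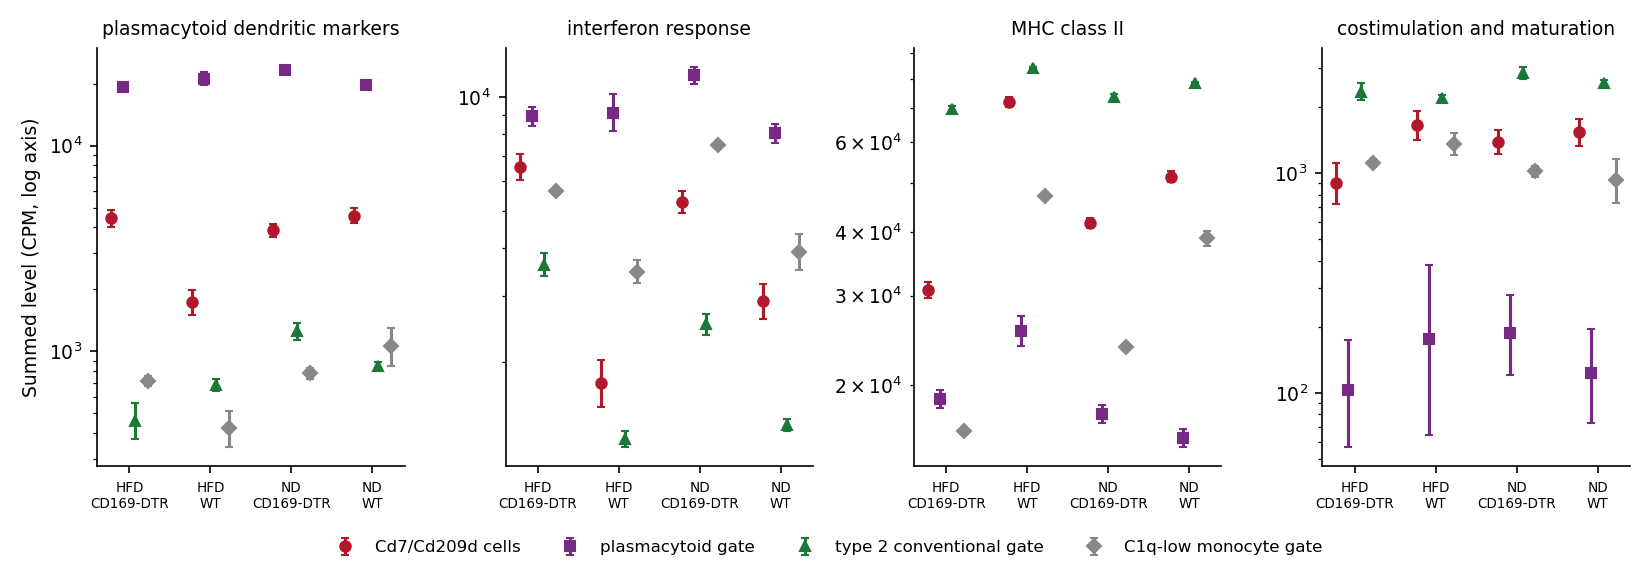
Summed level of 4 gene lists, in CPM on a log axis with 95% Poisson intervals, in Cd7/Cd209d cells and 3 comparison gates of each library. The Cd7/Cd209d cells lie between the plasmacytoid and type 2 cells for plasmacytoid markers in all 4 libraries, and their MHC class II sum is lowest in HFD CD169-DTR at 30833 CPM. The sums keep genes used by the gates, and Siglech, Ccr9, Klk1 and Cox6a2 are among the plasmacytoid markers. The place of the Cd7/Cd209d cells below the plasmacytoid cells is therefore set in part by the gating.

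Single cells carried several of the other levels. In ND WT, 1 of the 13 cells also passed the B cell gate, with 8129 UMIs of Igkc and 36 of Cd79a among its 19292 UMIs, and it held 99.5% of the B cell marker UMIs of that library's cells. B cell markers summed to 317, 234 and 290 CPM in HFD CD169-DTR, HFD WT and ND CD169-DTR, and in ND WT to 74580 CPM with this cell and 447 CPM without it. The cell also had 4 UMIs of Siglech, and Scrublet did not call it a doublet. Without it, the interferon sum of ND WT was 2833 CPM and its MHC class II sum 59207 CPM. Cell cycle genes summed to 736, 648, 587 and 2579 CPM in HFD CD169-DTR, HFD WT, ND CD169-DTR and ND WT, with 53.3% of the ND WT UMIs in 1 cell. Endothelial markers had 8, 3, 15 and 63 UMIs, with 58 of the 63 in 1 cell of ND WT. Markers of mast cells, neutrophils and mesothelium had at most 2 UMIs per list and library.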

How the data were processed

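The deposited matrix holds raw UMI counts of 31053 genes, made by the authors with Cell Ranger 3.1.0 on mm10, per the submitters' processing notes; no sequencing read was realigned here. The 32 sample records are 8 sequencing runs of each of 4 libraries. UMI counts were summed per library and gate, with CPM, exact 95% Poisson intervals for levels and Clopper-Pearson intervals for shares, which cover counting error only. Sums were tested with edgeR 4.0.16 (TMM, filterByExpr, library as a block, Benjamini-Hochberg adjusted p below 0.05), and DESeq2 1.42.0 was an alternative. The SE of a log2 fold change was derived as its absolute value over the square root of the F statistic of this test, which gives no SE itself. The edgeR step was tested on simulated data. Doublets were called with Scrublet through scanpy 1.11.5 and kept. Further exclusions of the gates were CD3 genes, Ncr1 and 5 or more C1q UMIs, and Fcgr1, Xcr1 and Clec9a for type 2 cells or Cd209a, Xcr1 and Clec9a for monocytes. Named genes are those of the rule, the label and 19 marker and 19 function lists, and the 12 largest called folds each way with 1 direction in every library. The members and lists were chosen with earlier results of these data known. Libraries are not known to come from separate experiments, so p-values measure only the spread of the gate difference across these libraries. Each library was of another group. The result for 1 gene is not reported here.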

Additional observations from a re-analysis of the deposited data

Results flagged for a closer look

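The 22 chemokine and cytokine genes summed to 3691 CPM in Cd7/Cd209d cells of HFD CD169-DTR and 8679 CPM in HFD WT, but to 6966 CPM in ND CD169-DTR and 3382 CPM in ND WT, so the CD169-DTR library was lower under the high fat diet and higher under the normal diet. With 1 library a group, the difference was not tested. A single cell held 47.1% of these UMIs in HFD CD169-DTR, 37.4% in HFD WT, 52.7% in ND CD169-DTR and 16.9% in ND WT. The median level per cell was 1390, 3808, 2439 and 2902 CPM in the same order, lower in the CD169-DTR library under both diets.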

How the results depend on the processing

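The share of Cd7/Cd209d cells moved with the rule. Asking for 2 UMIs of both genes gave 0.140% in HFD CD169-DTR and 0.386% in ND CD169-DTR, and allowing none of Ccr9, Klk1 and Cox6a2 gave the same values, 0.140% and 0.386%. Thinning to 2000 UMIs gave 0.135% in ND WT, and Ptprc-positive cells gave 0.715%, 0.500%, 1.25% and 0.527% in HFD CD169-DTR, HFD WT, ND CD169-DTR and ND WT. Against type 2 cells, genes higher were 59 with DESeq2, 57 with no replicate block and 156 with 2 UMIs of both genes, and genes lower were 528 with no filter and 81 with no replicate block. Another scaling, without TMM, moved the split to 134 higher and 145 lower. With DESeq2, which also changed the model and the genes tested, it was 59 and 172. Against plasmacytoid cells, genes higher were 104 with DESeq2, 409 with no filter and 117 with 2 UMIs of both genes, and 70 were lower with DESeq2. The split was 163 and 253 without TMM. Against monocytes, 177 were higher with 2 UMIs of both genes and 708 lower with no filter. The cause of these moves was not tested. DESeq2 put the median of all genes at 0.18 against type 2 cells and 0.18 against monocytes. Leaving out each library in turn gave 14 to 87 genes higher and 37 to 158 lower against type 2 cells, 136 to 239 and 128 to 234 against plasmacytoid cells, and 135 to 372 and 166 to 345 against monocytes, always lowest without ND CD169-DTR. Without the cell in the B gate, the counts were 102 and 173, 232 and 258, and 278 and 289, an alternative chosen after seeing the data, as was the fit with 2 UMIs and 5 or more cells a library. No named gene called in the report reversed under any alternative fitted. The fits pair the gates within a library, and leaving that pairing out (no replicate block) gave the 57 and 81 genes above, 184 and 190 against plasmacytoid cells and 212 and 235 against monocytes. Groups could not be paired, since the replicate numbers of the labels name sequencing runs of 1 library. Ratios between libraries were not formed, since no pair had 20 Cd7/Cd209d cells in both, so their alternatives gave no value. With 13 to 24 cells a library, a gene at 0 UMIs was not detectable at this depth.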
